A study of Mus musculus with 8 samples.

Results

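Cd34 and 9 other genes for surface molecules of fibroblasts and stromal cells (Ly6a, Thy1, Eng, Pdgfra, Cd44, Dpp4, Nt5e, Vcam1 and Alcam) were examined in mouse embryonic fibroblasts (MEFs) with and without Lats2. The 10 genes were chosen by name from 27745 gene names on the array, with their measured Lats2-/- over Lats2+/+ ratios already known. Those ratios are therefore described here without a test. All gene probes that carry a member's name were used, which gave 19 probes on 37 spots. Of these, 13 probes for 9 genes passed the filter on dim probes, which required 2 or more of the 3 extracts of a genotype to give a signal well above background. No probe of Dpp4 passed.

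The cells were untreated C57BL/6J embryonic fibroblasts, Lats2-/- or Lats2+/+, with 1 culture of each genotype from each of 3 litters, here called 112, 116 and 121. Each culture carries its own clone name in the labels, so a genotype is represented by 1 named clone in a litter. The age of the embryos and the part of Lats2 that the mutant allele lacks are not given in the sources used here. RNA of the 2 genotypes of a litter was hybridised together on 2-colour arrays, on 2 arrays for litters 112 and 116 and on 4 arrays for litter 121, with the dyes swapped on every other array. Litters 112 and 116 shared slide 1, and litter 121 was on slide 2. Values are log2 ratios of Lats2-/- over Lats2+/+, so that 1 means 2-fold higher in the mutant. The replicate is the litter (n = 3), and the spread is the SD over litters.

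CD34 is a sialomucin, a heavily glycosylated transmembrane protein, best known from haematopoietic progenitors and vascular endothelium but also found on fibroblasts around vessels and in loose connective tissue. The other genes code for molecules by which mesenchymal cells are commonly sorted. LATS2 is a kinase of the Hippo pathway that restrains the coactivators YAP and TAZ, which bind DNA through TEAD factors and often act beside AP-1. None of these molecules defines fibroblasts alone, since each is also found on other cell types.

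The sequences before 2 of the genes are shown, the gene with the highest ratio and the single gene whose sequence held a TEAD core. They are the 250 bases before the annotated start in RefSeq, build GRCm38.p6, printed in the direction of transcription. The Cd34 sequence lies at chr1:194938571-194938820 on the plus strand, and the Dpp4 sequence at chr2:62412232-62412481 on the minus strand. Capitals mark the TEAD core.
Cd34: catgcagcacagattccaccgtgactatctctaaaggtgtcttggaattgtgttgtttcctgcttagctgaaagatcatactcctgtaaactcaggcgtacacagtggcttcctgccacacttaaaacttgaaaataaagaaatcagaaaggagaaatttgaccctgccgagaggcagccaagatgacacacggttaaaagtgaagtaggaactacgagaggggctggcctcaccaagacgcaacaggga
Dpp4: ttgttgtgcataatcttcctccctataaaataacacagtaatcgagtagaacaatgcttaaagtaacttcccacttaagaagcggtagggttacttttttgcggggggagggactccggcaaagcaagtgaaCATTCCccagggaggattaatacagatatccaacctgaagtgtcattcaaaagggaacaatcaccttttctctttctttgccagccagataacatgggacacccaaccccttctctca

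RefSeq promoter sequences were at hand for 7 of the 10 genes (Cd34, Eng, Pdgfra, Cd44, Dpp4, Nt5e and Alcam). The TEAD core was searched as CATTCC and the AP-1 site as TGANTCA, on both strands. A match of one can share end letters with a match of the other, and each was counted. CATTCC was present in 1 of these 7 windows, Dpp4, beginning 118 bases before the start, and in 12.6% of all 32851 promoter windows of the same length. TGANTCA was in none of the 7 and in 6.75% of all windows. The Cd34 window held neither. Its GC content was 46.4%, against 43.6% in Dpp4 and 62.4% in Eng.

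Lats2 itself was measured by 4 probes. The probe nearest the 5′ end of the gene had a lower signal in each mutant, with log2 ratios of -1.33, -1.05 and -0.56 (litters 112, 116 and 121). The other 3 probes, nearer the 3′ end, had log2 ratios from -0.70 to -0.18 in the first pair of litters but 0.80 to 1.17 in litter 121. Since the deleted part is not given, these 3 probes cannot check the label of litter 121. The probe nearest the 5′ end was lower in that mutant too (-0.56). The authors report a western blot for loss of Lats2 in the knockout MEFs, and its legend names no litter. The arrays measured 52.9 to 61.3% of all probes well above background in each channel, and no gene spot was saturated. Across all 22642 probes that passed the filter, 0 passed an adjusted p of 0.05 in limma (0% of those tested, smallest adjusted p = 0.634), 1549 had an unadjusted p under 0.05, and the methods' test also left 0 after Benjamini-Hochberg adjustment.

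Cd34 was higher in the Lats2-/- cells of every litter and on all 8 arrays. Its normalised log2 signal in the Lats2+/+ cells was 6.30, 9.34 and 10.33 (litters 112, 116 and 121). In the Lats2-/- cells it was 8.69, 14.27 and 13.48 in the same order. Both genotypes were thus lowest in litter 112, and the mutant of litter 112 lay below the wild type of the other 2 litters, so that the 2 groups overlapped. The log2 ratios were 2.39, 4.94 and 3.15. Their mean was 3.49 ± 1.31 (SD, n = 3 litters), and it is a lower bound, since the wild type of litter 112 was not measured above background. The scanner's processed signals gave a mean of 4.39. Arrays of 1 litter differed by at most 0.35 on the log2 scale. Repeated arrays of the same extracts show technical noise only.

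The Cd34 probe (A_51_P204740, NM_133654) lies at chr1:196661922-196661981 on the plus strand, in build mm8 as given in the array files, which name the gene but not the exon. In litter 112 the wild-type signal was not well above background on either array, so the ratio is a bound there. Against the lowest signal that counted as well above background, Cd34 was at least 5.18-fold higher in the mutant of litter 112. The scanner's own processed signals, which add no constant, gave log2 ratios of 4.91, 5.08 and 3.19, so that the ratio of litter 112 depended on the processing. Ratios of at least 2-fold higher in each of the 3 litters were found for 1 of the 9 measured genes, Cd34, and for 0.212% of all probes that passed the filter. Since the genes were chosen on this contrast, nothing is read from that share. Within slide 1 the mean log2 ratio of Cd34 was 3.66, within slide 2 it was 3.15, and with slide as a block it was 3.41.

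**Figure D1:**
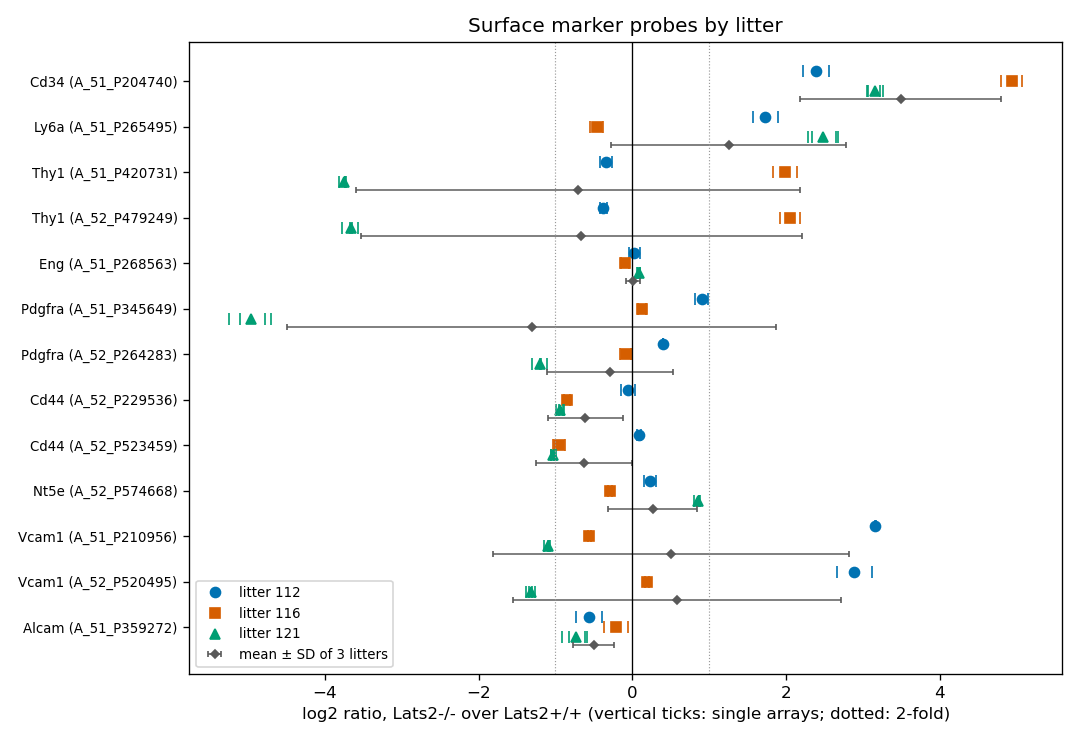
Log2 ratio of Lats2-/- over Lats2+/+ for the 13 probes that passed the filter, with 1 symbol a litter, vertical ticks for single arrays and a diamond with bars for the mean ± SD of 3 litters. Cd34 lies right of the 2-fold line in all 3 litters, while both Thy1 probes run from -3.75 or -3.66 in litter 121 to 1.99 or 2.05 in litter 116.

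**Figure D2:**
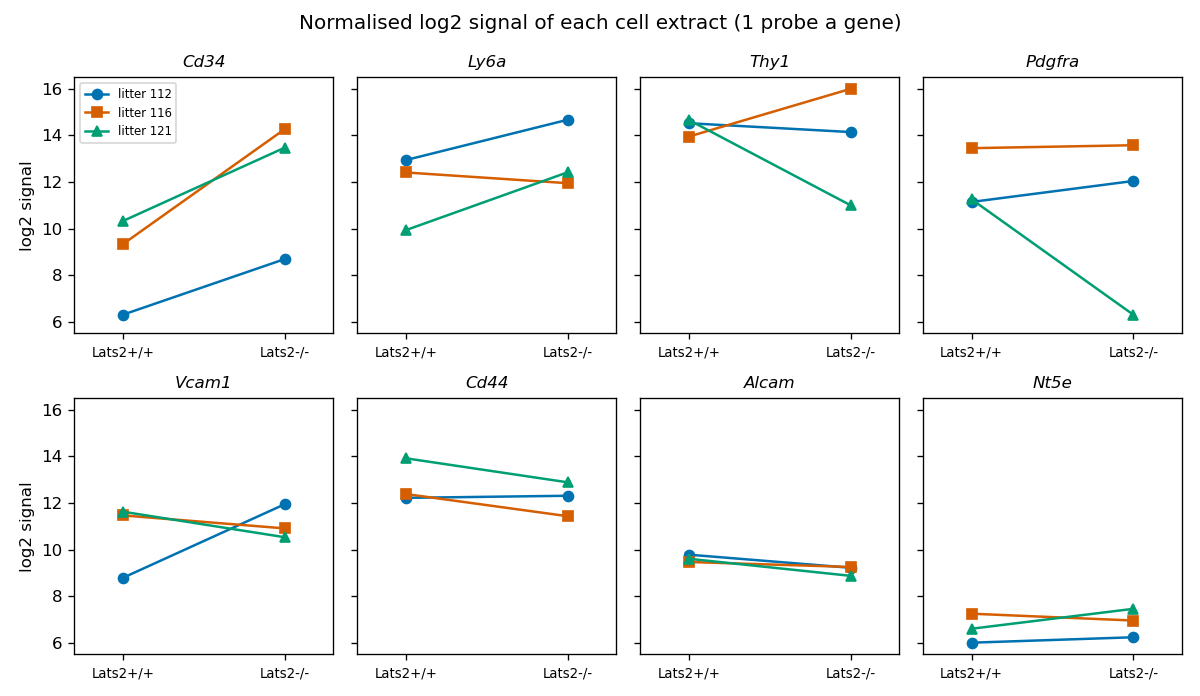
Normalised log2 signal of the Lats2+/+ and Lats2-/- cells of each litter for 8 genes, 1 probe a gene, with a line joining the 2 genotypes of a litter. The Cd34 lines rise in all 3 litters from unequal wild-type levels, the Alcam lines fall in all 3, and the Thy1, Pdgfra and Vcam1 lines cross. Heights are not comparable between genes.

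The wild-type cultures themselves differed in Cd34. The 3 Lats2+/+ extracts spanned at least 4.01 on the log2 scale, counted from the lowest signal well above background, since litter 112 lay under it. The 3 Lats2-/- extracts, all measured, spanned 5.58. The median span over all probes that passed the filter was 0.47 for wild-type and 0.49 for mutant extracts, and a wider mutant span than that of Cd34 was seen for 54 of the 22642 probes. Since Cd34 was chosen on ratios of these extracts, nothing is read from that rank. None is given for the wild type, whose span is a bound. In a bulk extract, fewer cells that carry a marker and less RNA in each cell cannot be told apart.

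Against the other surface markers, Cd34 stood highest in 2 of 3 litters. With 1 probe a gene, the other 8 measured genes had median log2 ratios of 0.13, -0.25 and -0.83 (litters 112, 116 and 121). Cd34 exceeded that median by 5.19 in litter 116 and by 3.98 in litter 121, where all 8 were below it. In litter 112 its ratio is a bound, since its wild-type signal was not well above background, and its order against Vcam1 (3.16) is not settled there. With the scanner's processed signals, where Cd34 was at 4.91 in litter 112, that Vcam1 probe was below it (3.32) and the second Vcam1 probe above it (5.87). Of the 13 member probes, 9 reached a 2-fold difference in some litter, as did 13.3% of all probes, and 4, those of Thy1 and Vcam1, did so in both directions, as did 1.83% of all probes. By litter, 4, 3 and 9 of the 13 probes were 2-fold different in litters 112, 116 and 121, beside 3.77%, 7.71% and 6.09% of all probes. Since the genes were chosen on these ratios, nothing is read from the shares.

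Ly6a codes for Sca-1, a small GPI-anchored protein used to sort mouse progenitors and adventitial stroma. Its log2 signal was 12.94, 12.41 and 9.93 in the wild-type cells of litters 112, 116 and 121. In the mutant cells it was 14.67, 11.95 and 12.42. The mutant was higher in litters 112 and 121 and lower in litter 116, on every array of each. The log2 ratios of 1.73, -0.46 and 2.48 had a mean of 1.25 ± 1.53 (SD, n = 3), so that the mean was smaller than the spread between litters.

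Ly6a belongs to a cluster of near-identical genes on the same chromosome, and how far the probe (chr15:74822378-74822437, minus strand, mm8) also binds their transcripts is not known here. Ly6c1 had log2 ratios of 1.21, -1.90 and 3.33 and Ly6i of 1.46, -0.27 and 1.56, with the same sign as Ly6a in each litter. Ly6e, a family member found on many cells, had 0.32, -0.91 and -0.98. Of 15 genes on the Ly6 family list, 13 were on the array and 8 passed the filter. Their median log2 ratios by litter were 0.46, -0.14 and 0.22, and none passed the adjusted threshold in limma.

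Thy1, or CD90, is a GPI-anchored glycoprotein of fibroblasts, neurons and T cells, and it changed direction between litters. For the probe A_52_P479249 (chr9:43799512-43799571, plus strand, mm8) the log2 signal in wild-type cells was 14.52, 13.95 and 14.66 in litters 112, 116 and 121. In mutant cells it was 14.14, 15.997 and 11.00. The wild-type cultures lay close together, within 0.72, and the mutants spanned 5.00. The log2 ratios were -0.38, 2.05 and -3.66, and those of the second probe, A_51_P420731, were -0.34, 1.99 and -3.75. Both probes thus gave 4-fold higher Thy1 in the mutant of litter 116 (3.97-fold and 4.14-fold) and 12.7-fold to 13.5-fold lower Thy1 in that of litter 121. With the scanner's processed signals the log2 ratios in litter 121 were -3.72 for A_52_P479249 and -5.12 for A_51_P420731, so the size on the latter depended on the processing. The means of -0.66 ± 2.87 and -0.70 ± 2.89 (SD, n = 3) describe none of the litters, and without litter 121 they became 0.84 and 0.82.

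Nt5e, or CD73, is the GPI-anchored enzyme that turns AMP into adenosine. It was dim: 1 of 2 probes (A_52_P574668) passed the filter, and neither genotype of litter 112 was well above background on it. In litter 116 the log2 signal was 7.25 in wild-type and 6.96 in mutant cells. In litter 121 it was 6.60 and 7.46. The log2 ratios were 0.23, -0.29 and 0.86, of which the first was taken near background. With the scanner's processed signals they were 1.74, -0.64 and 1.74.

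Pdgfra codes for the PDGF receptor alpha, a receptor tyrosine kinase that marks mesenchymal progenitors and many fibroblasts. Its probe A_51_P345649 (chr5:75479560-75479619, plus strand, mm8) was printed on 10 spots. The log2 signal was 11.14, 13.45 and 11.26 in the wild-type cells of litters 112, 116 and 121. In mutant cells it was 12.04, 13.58 and 6.30. The mutant of litter 121 lay alone at the bottom, far below its own wild type and all other cultures. The log2 ratios were 0.90, 0.13 and -4.96, with a mean of -1.31 ± 3.18 (SD, n = 3) that became 0.51 without litter 121.

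In litter 121 the mutant signal of that probe was well above background on 2 of 4 arrays, so that its ratio there has a direction but no settled size. The 4 arrays gave -5.25 to -4.70, and spots of 1 array had an SD of 0.20 to 0.26. The second probe, A_52_P264283, gave 0.40, -0.09 and -1.20. No array showed it well above background in the mutant of litter 121, and there it showed at least 2.29-fold less Pdgfra. With the scanner's processed signals the ratios of the 2 probes in litter 121 were -7.70 and -4.15. The 2 probes therefore had the same direction in litters 112 and 121 and opposite signs near 0 in litter 116.

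**Figure D3:**
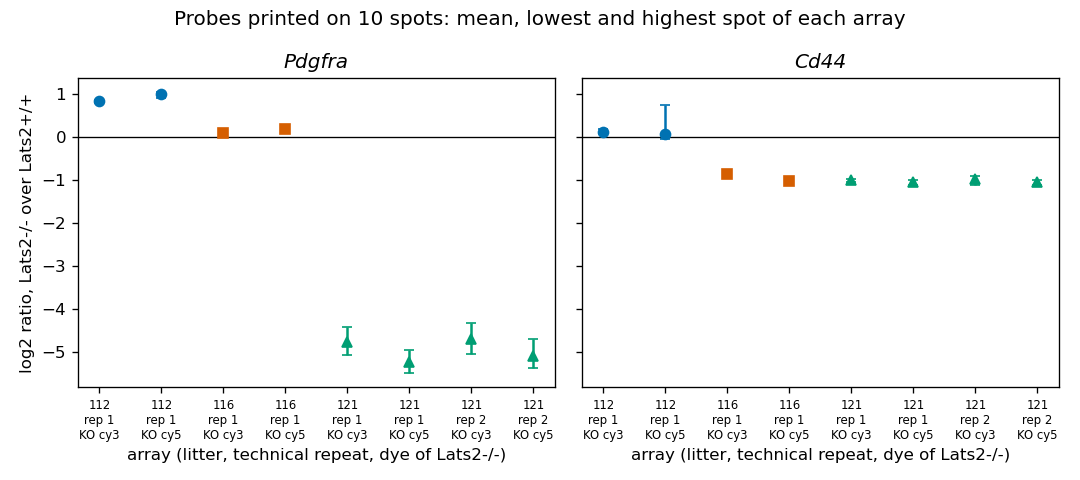
Log2 ratio of Lats2-/- over Lats2+/+ on each of the 8 arrays for the Pdgfra and Cd44 probes that were printed on 10 spots, with a symbol for the mean of the spots and bars from the lowest to the highest spot. The Pdgfra means lie from 0.07 to 0.98 on the arrays of slide 1 and from -5.25 to -4.70 on those of litter 121, in either dye orientation.

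Eng codes for endoglin, or CD105, an accessory receptor for TGF-beta and BMP ligands. Its log2 signal lay between 6.97 and 7.23 in wild-type and between 6.89 and 7.26 in mutant cells, well above background on all 8 arrays. The log2 ratios of 0.03, -0.09 and 0.08 had a mean of 0.01 ± 0.09 (SD, n = 3). A signal this near background compresses ratios, because a constant of 50 was added to each corrected intensity.

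Cd44 codes for the main receptor of hyaluronan, a large sugar polymer of the matrix. On the probe printed on 10 spots (A_52_P523459, chr2:102612349-102612408, minus strand, mm8) the log2 signal was 12.22, 12.38 and 13.92 in wild-type cells. In mutant cells it was 12.31, 11.43 and 12.89. The mutant was thus level with the wild type in litter 112 and lower in the other 2 litters. The log2 ratios were 0.09, -0.95 and -1.03, with a mean of -0.63 ± 0.63 (SD, n = 3). The probe A_52_P229536 gave -0.05, -0.85 and -0.94. The third Cd44 probe did not pass the filter.

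Vcam1 codes for an adhesion molecule that binds the integrin of alpha4 and beta1 chains and is induced by inflammatory signals. On the probe A_51_P210956 (chr3:116102302-116102361, minus strand, mm8) the log2 signal in wild-type cells was 8.79, 11.47 and 11.63 in litters 112, 116 and 121. In mutant cells it was 11.95, 10.91 and 10.53. The wild type of litter 112 was the low culture, and its mutant the highest of all 6. The log2 ratios were 3.16, -0.56 and -1.10, with a mean of 0.50 ± 2.32 (SD, n = 3), which became -0.83 without litter 112.

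The second Vcam1 probe, A_52_P520495, gave 2.89, 0.19 and -1.32, so that the 2 probes differed in sign in litter 116. In litter 112 its wild-type signal did not pass as well above background, and the mutant was at least 7.06-fold higher. The mRNA of its partner Itga4, the alpha4 integrin chain, had log2 ratios of -1.45, 3.21 and 0.87, opposite in sign to Vcam1 on A_51_P210956 in each litter (limma adjusted p = 0.863).

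Alcam, or CD166, is an adhesion molecule of the immunoglobulin family, measured by 1 probe (chr16:52188143-52190020, minus strand, mm8). Its log2 signal was 9.78, 9.47 and 9.61 in wild-type cells and 9.22, 9.25 and 8.87 in mutant cells. It was lower in the mutant of every litter and on all 8 arrays, and the 2 groups did not overlap. Such a lack of overlap was found for 6.13% of all probes that passed the filter. The log2 ratios of -0.56, -0.21 and -0.73 had a mean of -0.50 ± 0.27 (SD, n = 3), a 1.42-fold difference. In litter 116 the single arrays gave -0.37 with the mutant in Cy3 and -0.06 with it in Cy5.

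Dpp4, or CD26, is a surface peptidase that marks interstitial progenitor fibroblasts in several mouse tissues. Its 3 probes were well above background on 0, 1 and 2 of 8 arrays in each genotype. Their log2 ratios lay between -0.16 and 0.14, and no difference could be measured at this signal. The same held for the second Nt5e probe (A_51_P156740) and for the third Vcam1 probe (A_52_P462332), which was well above background on 1 array.

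Over the 9 measured genes, 3 had a probe with 1 sign in all 3 litters, namely Cd34, Alcam and 1 of the 2 Cd44 probes. By probe this was 3 of the 13. The share of all probes with 1 sign in all 3 litters was 29.7% (15% higher and 14.8% lower in the mutant). Without litter 112, 116 or 121, the genes with a probe of 1 sign in both remaining litters numbered 5, 7 and 5, beside 52.3%, 53% and 54.2% of all probes. Those with a probe at least 2-fold one way in both remaining litters numbered 1, 2 and 1, or 1, 2 and 1 of the 13 probes, beside 1.02%, 0.742% and 0.892% of all probes. A gene with 2 probes could count by either, so that counts of genes are not like shares of probes. The median SD over litters was 1.31 for the 13 member probes and 0.25 for all probes that passed the filter, and nothing is read from that difference, since the members were chosen on these ratios. The median SD over repeated arrays, which is technical, was 0.10 for the members. Litter and culture cannot be told apart with 1 culture of a genotype in each litter. Nor can litter 121 be told apart from slide 2, which held that litter alone.

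Over the 6 extracts, the log2 signal of Nt5e ran most nearly with that of Cd34 among the other 8 genes (Pearson's r = 0.74, n = 6 extracts). Both Nt5e signals of litter 112 and the wild-type Cd34 signal of litter 112 were not well above background, so that this value and the others with Cd34 rest in part on unmeasured levels. Alcam (r = -0.73) and Eng (r = -0.72) ran the opposite way, Vcam1 had r = 0.30, and Thy1, Cd44, Pdgfra and Ly6a lay between -0.16 and -0.33. Among 14782 other gene names, the closest were Crebzf (r = 0.99), Npal3 (named Nipal3 in RefSeq, r = 0.98), Nucb1 (r = 0.98), LOC627905 (r = 0.98) and Hsbp1 (r = 0.98). Their own ratios were small, for Crebzf 0.15, 0.48 and 0.33 in litters 112, 116 and 121. Extracts of a litter share arrays, and with 6 values these correlations are a description.

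The sialomucin family and partners of CD34 comprised 8 genes, 5 of which passed the filter. Cd164, the sialomucin endolyn, had log2 ratios of 0.69, 0.32 and 0.65, with a mean of 0.55 ± 0.20 (SD, n = 3, limma adjusted p = 0.711). Ezr, which codes for ezrin, a linker of membrane proteins to actin, had 0.08, 0.41 and 0.95 (adjusted p = 0.723). Crkl, an adaptor protein reported to bind CD34, had -0.20, -0.21 and 0.20. The list's median was 0.48, against 0.0058 over all probes, with 4 genes above 0 and 1 below, and 0 of 5 passed the adjusted threshold in limma.

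Of 25 ligands and partners of the 10 molecules, 19 passed the filter, 14 with a mean above 0 and 5 below, with a median of 0.14, and 0 of 19 passed the adjusted threshold. Has2, which codes for a synthase of the CD44 ligand hyaluronan, had log2 ratios of 1.17, 2.19 and 2.79 (mean 2.05 ± 0.82, SD, n = 3, limma adjusted p = 0.711), and was well above background in 2 of 3 wild-type extracts. Cd44 itself was level in litter 112 and lower in litters 116 and 121. Cxcl12, a chemokine that DPP4 cleaves, had 2.18, 0.61 and 1.54 (mean 1.44 ± 0.79, adjusted p = 0.711). At an unadjusted p under 0.05 and at least 2-fold in mean, which held for 0.835% of all probes, these 2 were the genes of that list. Since the list was chosen with earlier results of these data known, nothing is read from that share.

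Several ligands and receptors of the pathways of Pdgfra and Eng were also measured. Pdgfa had log2 ratios of 0.33, -0.31 and 0.23, and Pdgfc of -0.05, 0.16 and 0.30. Pdgfd, a ligand of the beta receptor, had 1.76, 0.01 and 2.36 (limma adjusted p = 0.711), taken partly against background, since it was well above background in 1 of 3 wild-type and 2 of 3 mutant extracts. Tgfbr2, the type II TGF-beta receptor, had 0.95, 0.89 and 0.59 (mean 0.81 ± 0.19, adjusted p = 0.711). Tgfbr1, the type I receptor, had 0.24, -0.21 and 0.41, and Tgfbr3, the coreceptor betaglycan, had 0.24, 0.08 and -0.18. The beta receptor gene Pdgfrb had 0.87, 0.87 and -0.14. In litter 121 both Pdgfra probes were lower in the mutant (-4.96 and -1.20), at a size that is not settled.

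Other markers show what the cultures were. All 12 genes of the fibroblast list were detected, with Col1a1, Col1a2, Col3a1 and Vim well above background in both genotypes on all 8 arrays. Of these 12, the mutant was higher for 7, 10 and 1 in litters 112, 116 and 121, with medians of 0.10, 2.12 and -0.74. Col3a1 had log2 ratios of 0.13, 3.70 and -3.42, and Dcn, the matrix proteoglycan decorin, of 3.26, 6.22 and -1.94. Col3a1 thus had the sign of Thy1 in litters 116 and 121. None of the 12 passed the adjusted threshold in limma (smallest adjusted p = 0.737).

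**Figure D4:**
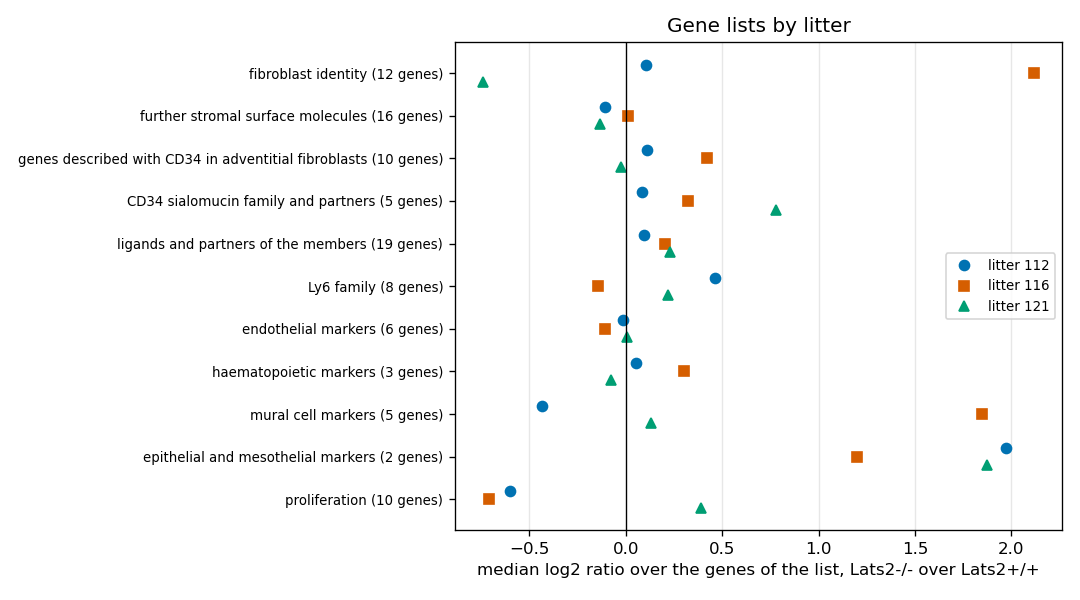
Median log2 ratio of Lats2-/- over Lats2+/+ over the genes of each list that passed the filter, with 1 symbol a litter and the number of genes in brackets. The median of the fibroblast list runs from -0.74 in litter 121 to 2.12 in litter 116. That of the further stromal surface molecules lies between -0.14 and 0.01, over genes that went both ways, such as Mme from -2.99 to 1.46.

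Of 20 further stromal surface molecules 16 passed the filter, 8 with a mean above 0 and 8 below, and their median was -0.02. Cd276, a B7 family molecule, had log2 ratios of -0.89, -1.16 and -0.53 (mean -0.86 ± 0.32, SD, n = 3, limma adjusted p = 0.711). Mcam, or CD146, had -1.30, 1.85 and 2.35, and Mme, the surface peptidase CD10, had 1.46, -2.99 and -1.94, each well above background in 2 of 3 wild-type extracts, so that 1 ratio of each is taken against background. Of 12 genes described with CD34 in adventitial fibroblasts 10 passed, 7 with a mean above 0 and 3 below (median 0.19). Pi16 had 0.02, 0.36 and -0.02, and Dpt, or dermatopontin, 0.31, 1.22 and -0.27, partly against background, since Dpt was well above it in 2 of 3 mutant and 1 of 3 wild-type extracts. Neither list had a gene past the adjusted threshold.

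Cells in which CD34 is best known were sought by their own markers. The endothelial markers Pecam1 and Cdh5 were well above background on 0 of 8 arrays in both genotypes. Kdr, with log2 ratios of 0.0098, -0.0053 and 0.50, was so on 4 arrays of the mutant. The log2 signals of all 3 lay between 5.99 and 6.61. Flt1, a VEGF receptor, and Egfl7, a secreted protein of vessels, were well above background on all 8 arrays in both genotypes. Flt1 had log2 signals from 7.70 to 11.66 and log2 ratios of -0.73, 1.64 and -3.05, and Egfl7 had signals from 7.32 to 9.56 and ratios of 0.45, -1.16 and -0.87. Of 14 endothelial markers 6 passed the filter, 2 with a mean above 0 and 4 below. Their summed linear signal was 763 to 2697 in mutant and 1804 to 3855 in wild-type extracts. The haematopoietic markers Ptprc, the common leukocyte antigen, and Kit were well above background on 0 of 8 arrays, and Csf1r on 4 arrays of the mutant and 3 of the wild type. Of 12 haematopoietic markers 3 passed, with summed signals of 371 to 3620 in mutant and 336 to 492 in wild-type extracts. The highest sum came with Lyz2, a lysozyme gene, whose log2 ratios were 0.05, 0.95 and 3.40 (limma adjusted p = 0.739).

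Among mural cell markers, Cspg4, the NG2 proteoglycan of pericytes, was lower in the mutant of every litter, with log2 ratios of -2.10, -4.14 and -3.94 (mean -3.39 ± 1.12, SD, n = 3, limma adjusted p = 0.692). Acta2, smooth muscle actin, had -0.43, 3.16 and 0.49, and Rgs5 was well above background on 0 arrays of the mutant and 1 of the wild type. Of 9 genes 5 passed the filter, with summed signals of 118156 to 275113 in mutant and 18618 to 210185 in wild-type extracts. The brightest genes in these sums were Acta2 and Tagln, with log2 signals up to 17.22 and 16.65 in mutant extracts. Cspg4 reached 9.32 in mutant and 11.42 in wild-type extracts. Of 8 epithelial and mesothelial markers 2 passed. Msln, or mesothelin, had log2 ratios of 1.52, 2.03 and 1.91 (mean 1.82 ± 0.26, limma adjusted p = 0.634), and Krt19, a keratin, had 2.42, 0.37 and 1.83 (adjusted p = 0.711), well above background in 1 of 3 wild-type extracts. Their summed signals were 759 to 16810 in mutant and 198 to 4168 in wild-type extracts. Epcam was above background on no array, Cdh1, with log2 ratios of -0.0008, -0.19 and 1.09, on 4 mutant arrays and Krt8 on 2 wild-type arrays. Kdr and Cdh1, which did not pass the filter, had their highest ratio in litter 121, where Pdgfra, Thy1 and Col3a1 were lowest. Genes of their lists that did pass were mixed. Erg was also highest in litter 121 (0.65), Flt1 was lowest there (-3.05), and Krt19 and Msln were highest in litters 112 and 116. The part of these markers in the Cd34 ratios was not tested.

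**Figure D5:**
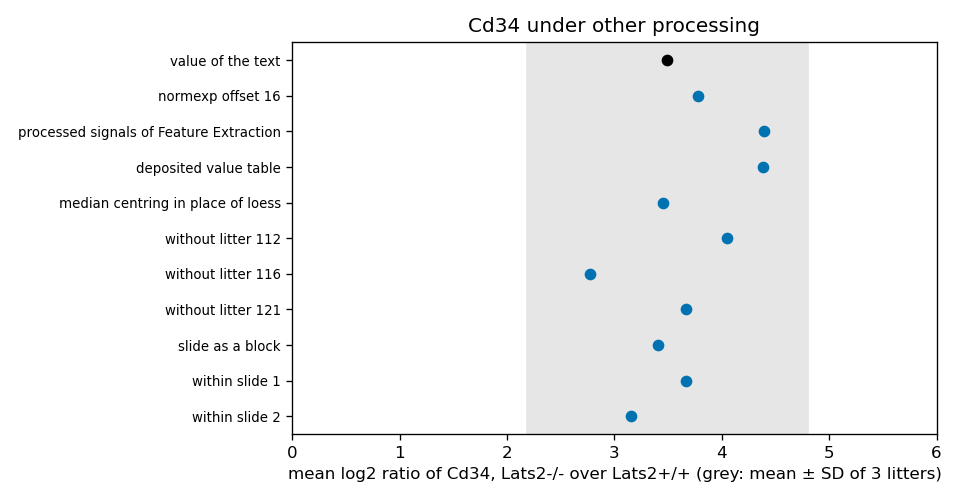
Mean log2 ratio of Cd34, Lats2-/- over Lats2+/+, as given in the text (black) and under 10 other settings (blue; leaving out litter 121 and slide 1 alone are the same fit, and slide 2 is litter 121 alone), with a grey band for the mean ± SD of 3 litters. Values run from 2.77 without litter 116 to 4.39 with the scanner's own processed signals, all inside the band.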

How the data were processed

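In all, 8 arrays in 2 colours (Agilent-014868 Whole Mouse Genome 4x44K) were analysed, each with labelled RNA of a Lats2-/- and a Lats2+/+ culture of 1 litter. The authors deposited spot intensity values, with background medians and flags, from Agilent Feature Extraction (10.7.3.1 in the file headers, 10.5.1.1 in the submitters' processing notes), with probe positions in mm8. The deposited value table holds log10 ratios that equal the scanner ratios within 0.005, turned to Lats2-/- over Lats2+/+. A difference over arrays rests on their number, which limits the precision.

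Mean intensities were background corrected by normexp with an offset of 50 in limma 3.58.1 (R 4.3.3). Control spots were left out, 860 outlier spots were set missing, and ratios were loess normalised within arrays. Ratios were turned to Lats2-/- over Lats2+/+ and averaged over spots, then over arrays of a litter, since these share extracts. Signals of each genotype came from the same arrays after Aquantile scaling. Probes entered the tests when 2 or more of the 3 extracts of a genotype were well above background (22642 of 41174 probes). The 3 litter ratios were tested against 0 with lmFit and eBayes, with Benjamini-Hochberg adjustment, after a check on simulated ratios. A ratio against an extract not well above background on any array is a bound: the bright mean against, per array, the higher of the probe's own signal and the lowest signal of those flagged as measured. For listed genes the brightest probe that passed was used, matched by symbol, older symbol or RefSeq accession, in all but 2 Ly6 family genes. Genes named with values are all members, listed genes at least 2-fold in mean with an unadjusted p under 0.05, the first 3 markers of each other cell type and the 5 genes whose signals run most nearly with Cd34. Others were picked after their values were seen.

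The members and lists were chosen with earlier results of these data known. Alternatives were another offset, the scanner's processed signals, the value table, median centring, leaving out a litter, slide as a block, other filters, an unpaired fit and the methods' t-test. Promoter sequences are from RefSeq, GRCm38.p6.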

Additional observations from a re-analysis of the deposited data

How the results depend on the processing

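The Cd34 mean log2 ratio kept its direction under all 10 other settings (2.77 to 4.39; slide 1 alone is the fit without litter 121, and slide 2 is litter 121 alone), and so did those of Ly6a, Alcam and both Cd44 probes. Cd34 was at least 2-fold higher in every litter under each scaling. The means of Thy1, Pdgfra, Vcam1, Nt5e and Eng changed sign in some settings, each with a litter or slide left out or, for Eng, also with another scaling. Leaving out 1 litter, 5 to 7 of 9 members had a probe with 1 sign in the remaining litters (3 with all litters). Among all probes 52.3% to 54.2% did, and nothing is read from it. In the same settings 1 to 2 members were 2-fold one way in each remaining litter, as were 0.742% to 1.02% of all probes.

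No setting gave a probe past the adjusted threshold. At a mean of 2-fold or more and an unadjusted p under 0.05 there were 189 probes (144 higher, 45 lower). There were 305 with an offset of 16, 551 with the processed signals (336 higher, 215 lower), 545 with the value table (335 higher, 210 lower), 418 with slide as a block, 373 within slide 1, 260 to 373 without 1 litter, 112 without the replicate block and 71 by the methods' t-test. The 55 probes at least 2-fold one way in each litter became 184 with the processed signals or the value table, 150 with slide as a block, 202 within slide 1, 1378 within slide 2 (1 litter, no test) and 168 to 231 without 1 litter. Fewer litters make that criterion easier to meet. Dim probes, as for Dpp4, Nt5e and Eng, limit what could be measured.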

Other observations

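The 10 proliferation genes, read beside the surface markers, split by litter. All 10 were lower in the mutant of litters 112 and 116, and 9 of 10 were higher in that of litter 121, with median log2 ratios of -0.60, -0.71 and 0.39. Mki67, a marker of cycling cells, had -1.14, -0.30 and 0.46, and Top2a, a topoisomerase of dividing cells, had -0.98, -0.73 and 0.27. None passed the adjusted threshold in limma (smallest adjusted p = 0.711).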
